A study of Mus musculus with 20 samples.

Results

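The genes described here encode intraflagellar transport complex A (IFT-A), its membrane adaptor and the motor dynein-2 in mouse tracheal epithelial cells (MTECs). They were taken by symbol: Ift122, Ift140, Wdr19, Ift43, Wdr35 and Ttc21b for the complex, Tulp3 for the adaptor, and Dync2h1 and Dync2li1 for the motor. All 9 were found among the 38355 genes measured, and all 9 passed the filter on low values that left 15738 genes for testing. RNA came from primary MTECs grown on membranes with air above and medium below, where tracheal basal cells become ciliated and secretory cells. The libraries labelled knockout came from mice that carry a global knockout of p73, a transcription factor of the p53 family, and were harvested on days 0, 4, 7 and 14 with 2 libraries per day. The wild-type libraries were harvested on the same days, with 3 per day. The labels give no other allele or agent, and do not say which exons of Trp73 are deleted, how old the mice were or whether cells of several mice were pooled. The series text speaks of 3 independent replicates for each genotype, and 20 libraries in all were analysed here.

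Cilia are built and maintained by trains of protein complexes that move along the axoneme. Kinesin-2 drives the trains with IFT-B towards the tip, and dynein-2 with IFT-A returns them to the base. IFT-A also admits membrane proteins to the cilium, for which TULP3 connects the complex to phosphoinositides and to receptors. In airway epithelium the multiciliated cells that clear mucus make many motile cilia each, so that these cells are a large site of this transport. In human, mutations in several of these genes cause skeletal ciliopathies with short ribs and cystic kidneys.

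Levels are given as CPM, reads per M reads of a library, after TMM scaling between libraries (trimmed mean of M values). Reads recovered per library numbered 3.27 to 31.5 M, and the fewest reads that any of the 9 genes had in a library was 114. Differences are log2 differences ± SE on the log2(CPM + 0.5) scale, fitted in limma over all 15738 tested genes. Genes with an adjusted p (limma, Benjamini-Hochberg) under 0.05 were called, and "rose" or "fell" is written only of called genes. Between genotypes these words mean higher or lower in labelled knockout than in wild type, and not a change over time. In each genotype, replicate 1 of day 4 has day 3 in its title and day 4 in its other labels, and it was kept at day 4. Labelled-knockout replicate 2 stood apart from the other libraries of the same day at days 4, 7 and 14. Its 50 most abundant genes took 20%, 18% and 18.8% of the reads, against 14.4%, 14.7% and 15.8% in replicate 1. In wild type the share was 15.5% to 18.1% at day 4, 14.5% to 16.3% at day 7 and 15.7% to 15.8% at day 14. Lyz2, a lysozyme gene of myeloid cells and lung epithelium, was at 7210, 4850 and 2740 CPM in labelled-knockout replicate 2 at days 4, 7 and 14, against 869, 984 and 864 CPM in replicate 1 and 499 to 1160 CPM in wild type.

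Trp73 reads were not lower in the libraries labelled knockout. At day 0 Trp73 was at 49.2 and 48.7 CPM in labelled knockout, against 2.70, 2.20 and 1.07 CPM in wild type, a difference of 4.38 ± 0.36 (adjusted p = 8.16e-06). At day 14 it was at 30.5 and 16.7 CPM in labelled knockout, against 23.3, 27.0 and 27.2 CPM in wild type (-0.19 ± 0.36, adjusted p = 0.962). Reads that fall outside a deleted part of the gene check nothing, so the genotype rests on the labels alone, and "labelled knockout" is used throughout.

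From day 0 to day 14 of culture in wild type, 8 of the 9 genes rose, to levels between 2.85 and 6.2 times those of day 0, and the exception was Ttc21b. Against 8 of 9 here, 21.8% of all tested genes were called higher in that comparison. At day 14, 4 of the 9 (Wdr19, Dync2li1, Ift140 and Ift122) fell in labelled knockout, and 0 rose, where 3.8% of all tested genes were called lower and 0.413% higher (4.21% in all). All 9 day 14 differences were negative, with a median of -0.80 against -0.01 over all tested genes, and for 8 of the 9 each labelled-knockout library was below each wild-type library, as it was for 17.6% of tested genes. Leaving out 1 library of day 14 at a time left 1 of the 9 called without labelled-knockout replicate 2, and 2 without labelled-knockout replicate 1, wild-type replicate 2 or wild-type replicate 3. With labelled-knockout replicate 2 left out at every day, an alternative added after the data were seen, 0 of the 9 were called at day 14. In bulk RNA, fewer ciliated cells and less RNA of these genes per cell cannot be told apart.

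**Figure D1:**
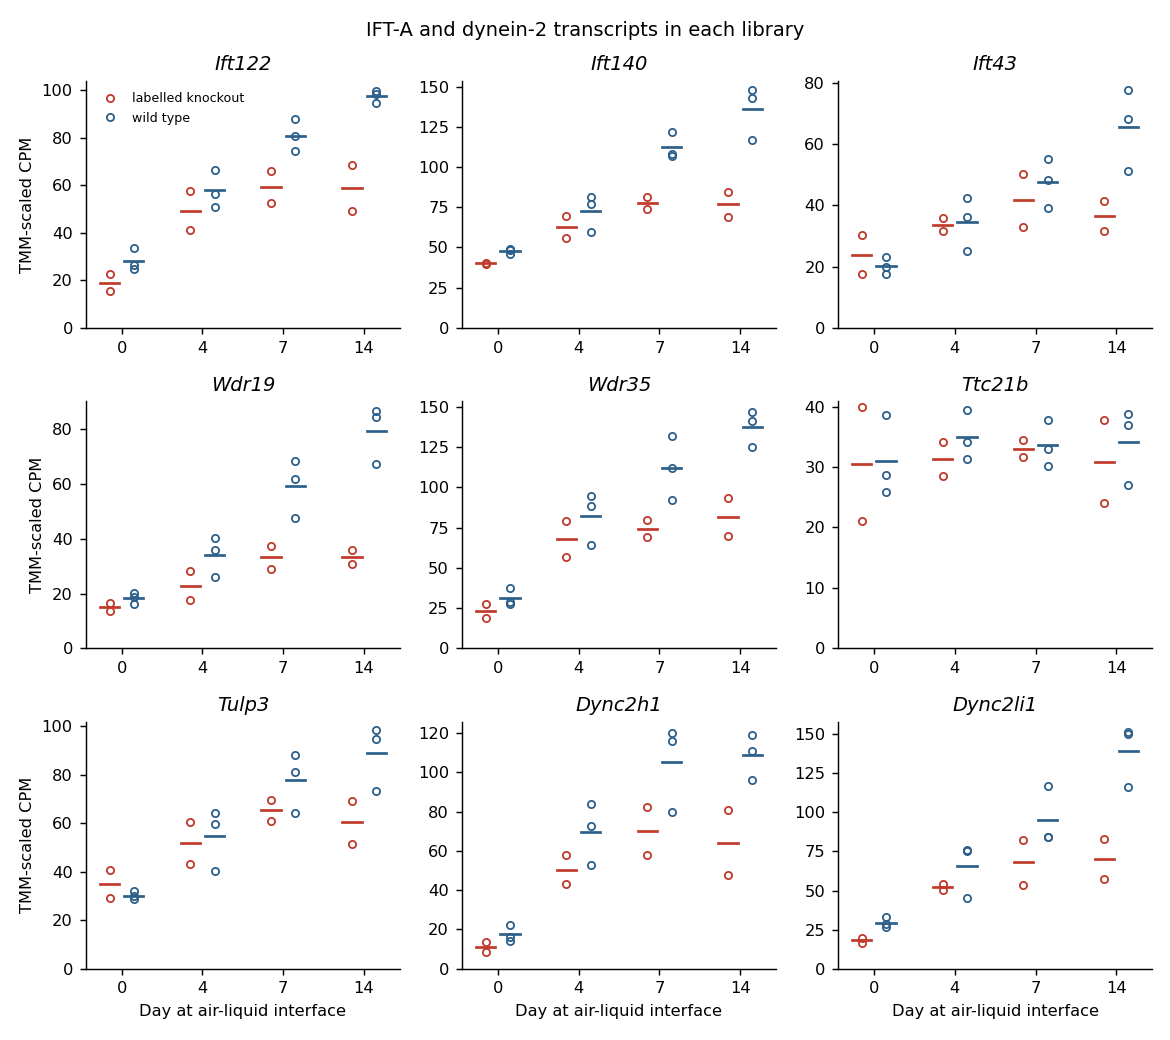
TMM-scaled CPM of the 9 genes (one panel each) by day at the air-liquid interface, with labelled-knockout libraries (red, left of each pair) and wild-type libraries (blue, right). Circles are libraries and bars are group means; days are evenly spaced on the axis. At day 14, Wdr19 was at 35.7 and 30.6 CPM in labelled knockout, against 67.1 to 86.4 CPM in wild type, and Ttc21b overlapped between genotypes on every day.

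Promoter sequences were at hand for 7 of the 9 genes, and 3 are shown to let the letters be read beside the levels. Wdr19 and Dync2h1 are the members with a match to the X-box, the site that RFX transcription factors of ciliated cells bind. Ttc21b is shown as the member whose level did not follow the others. The windows run from 250 bases before the annotated start to 50 bases into the transcript, from RefSeq on GRCm38.p6, written 5′ to 3′ on the strand of the gene. Capitals mark the X-box (GTNNCCNNNGNNAC) and a short RFX motif (GTTGCC on either strand).
Wdr19, chr5:65199446-65199745, plus strand: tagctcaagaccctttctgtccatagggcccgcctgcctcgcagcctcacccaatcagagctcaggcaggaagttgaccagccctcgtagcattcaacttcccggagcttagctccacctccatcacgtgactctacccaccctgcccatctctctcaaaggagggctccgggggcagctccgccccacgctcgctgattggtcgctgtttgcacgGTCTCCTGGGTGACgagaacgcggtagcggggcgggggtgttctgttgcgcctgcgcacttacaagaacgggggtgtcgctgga
Dync2h1, chr9:7177009-7177308, minus strand: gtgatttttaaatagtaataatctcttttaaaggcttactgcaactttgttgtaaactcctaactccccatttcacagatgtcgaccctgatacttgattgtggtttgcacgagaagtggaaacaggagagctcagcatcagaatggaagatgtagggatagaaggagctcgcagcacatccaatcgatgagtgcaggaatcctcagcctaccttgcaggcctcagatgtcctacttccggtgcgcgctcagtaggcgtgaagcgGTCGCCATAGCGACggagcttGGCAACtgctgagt
Ttc21b, chr2:66256568-66256867, minus strand: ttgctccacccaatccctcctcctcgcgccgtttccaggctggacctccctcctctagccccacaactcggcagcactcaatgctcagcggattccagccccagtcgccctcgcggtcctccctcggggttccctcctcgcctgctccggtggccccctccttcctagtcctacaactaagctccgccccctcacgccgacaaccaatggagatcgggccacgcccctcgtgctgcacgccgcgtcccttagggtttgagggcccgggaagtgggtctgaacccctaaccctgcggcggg
The X-box of Wdr19 began 34 bases before the start and matched the pattern on both strands, and that of Dync2h1 began at base 16 of the transcript. For Dync2h1 the RefSeq window lies inside the gene span of GENCODE, which on the minus strand begins at base 7184446. Its base numbers therefore hold for the RefSeq start only. The short RFX motif was also present in Ift140, beginning 109 bases before the start on the opposite strand, in Wdr35 at base 41 of the transcript, and in Dync2h1 at base 37 on the opposite strand. The windows of Ift43, Ttc21b and Tulp3 held neither motif. Over all 32851 RefSeq windows of that length, 4.62% held the X-box and 12.5% the short RFX motif. The p53 family motif unit, searched on both strands, was in 8.36% of the windows and in 0 of these 7. A match is a run of letters in a window of 300 bases and shows no binding.

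The core of IFT-A holds Ift122, Ift140 and Wdr19, which encodes IFT144, all of them long proteins with WD40 and tetratricopeptide-like repeats. Ift122 (ENSMUSG00000030323) lies on the plus strand at chr6:115853470-115926699 (GRCm38), with 34 merged exons of 10319 bp. In labelled knockout it was at 22.5 and 15.4 CPM at day 0, 57.5 and 41.2 CPM at day 4, 66.1 and 52.4 CPM at day 7, and 68.3 and 49.0 CPM at day 14. In wild type it was at 33.7, 24.7 and 26.6 CPM at day 0, 50.9, 56.5 and 66.3 CPM at day 4, 80.6, 74.2 and 87.7 CPM at day 7, and 94.4, 99.6 and 98.2 CPM at day 14. The genotypes were apart at days 0, 7 and 14 and overlapped at day 4. At day 14 it averaged 58.6 ± 13.7 CPM in labelled knockout (SD, n = 2), 60.2% of the 97.4 ± 2.67 CPM in wild type (SD, n = 3). Ift122 fell in labelled knockout at that day by 0.75 ± 0.20 (adjusted p = 0.0496), a call at the very edge of the threshold. Leaving out any 1 of the 5 day 14 libraries ended it (adjusted p 0.0591 to 0.558), and it stood in 4 of the 12 other settings (0.0169 to 0.0858).

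Ift140 (ENSMUSG00000024169), at chr17:25016085-25099495 on the plus strand, spans 29 merged exons of 8333 bp. Its labelled-knockout libraries held 40.6 and 39.7 CPM at day 0, 69.3 and 55.6 CPM at day 4, 81.3 and 73.8 CPM at day 7, and 84.3 and 69.2 CPM at day 14. Wild-type libraries held 48.2, 45.8 and 49.1 CPM, then 59.4, 77.3 and 81.6 CPM, then 107, 108 and 122 CPM, and 117, 143 and 148 CPM on the same days. Every labelled-knockout library was under every wild-type library at days 0, 7 and 14. The day 14 level was 76.8 ± 10.7 CPM in labelled knockout (n = 2), 56.4% of the 136 ± 16.4 CPM in wild type (n = 3), and the fall of 0.82 ± 0.16 was called (adjusted p = 0.00577). Without labelled-knockout replicate 2 of day 14 the adjusted p was 0.108, and with any other day 14 library left out the call stood. At day 7 the difference was -0.53 ± 0.16 and was not called (adjusted p = 0.124), although DESeq2 on the recovered reads called it (0.043).

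Wdr19 (ENSMUSG00000037890), at chr5:65199696-65260415 on the plus strand, has 35 merged exons of 11278 bp and at days 4, 7 and 14 had the most negative difference of the 9. In labelled knockout Wdr19 stood at 16.5 and 13.8 CPM at day 0, 28.3 and 17.5 CPM at day 4, 37.4 and 28.9 CPM at day 7, and 35.7 and 30.6 CPM at day 14. In wild type Wdr19 stood at 20.2, 16 and 18.7 CPM at day 0, 25.9, 35.7 and 40.3 CPM at day 4, 61.6, 47.6 and 68.5 CPM at day 7, and 67.1, 84.2 and 86.4 CPM at day 14. Wild-type libraries did not overlap between days 0, 4 and 7 and overlapped narrowly between days 7 and 14, while labelled-knockout libraries of day 14 lay inside the range of day 7. At day 14 it averaged 33.2 ± 3.63 CPM in labelled knockout, 41.9% of the 79.2 ± 10.6 CPM in wild type. The fall was 1.24 ± 0.23 (adjusted p = 0.00501), and 3.78% of all tested genes had a lower difference. Without labelled-knockout replicate 2 of day 14 the difference was -1.13 (adjusted p = 0.0749), and with any other day 14 library left out the call stood. At day 7 Wdr19 differed by -0.82 ± 0.23 (adjusted p = 0.0983), and DESeq2 called it (0.024). At day 4 it differed by -0.58 ± 0.23 (adjusted p = 0.45), and without both libraries titled day 3 the difference was -1.1 and called (adjusted p = 0.0411).

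The outer part of the complex is made of Wdr35, which encodes IFT121, Ift43, a small protein that binds IFT121, and Ttc21b, which encodes IFT139. Wdr35 (ENSMUSG00000066643; chr12:8973892-9028847, plus strand; 27 merged exons, 7273 bp) was at 93.2 and 70.0 CPM in labelled knockout at day 14, against 125, 141 and 147 CPM in wild type. At day 0 it was at 27.5 and 19.1 CPM in labelled knockout, against 37.5, 27.8 and 29.0 CPM in wild type. Between these, Wdr35 was at 79.3 and 56.5 CPM in labelled knockout and 64.3, 88.7 and 94.4 CPM in wild type at day 4, and at 79.7 and 69.1 CPM against 112, 91.9 and 132 CPM in wild type at day 7. The genotypes were apart at days 0, 7 and 14 and overlapped at day 4. The day 14 difference of Wdr35 was -0.76 ± 0.22 and missed the threshold (adjusted p = 0.0696), while DESeq2 gave 0.034. The mean in labelled knockout was 59.3% of that in wild type, and leaving out single libraries of day 14 gave an adjusted p of 0.0854 to 0.587.

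Ift43 (ENSMUSG00000007867; chr12:86082541-86162459, plus strand; 10 merged exons, 1651 bp) was not lower in mean at day 0, with 30.4 and 17.5 CPM in labelled knockout, against 23.0, 19.9 and 17.7 CPM in wild type. At day 14 Ift43 was at 31.6 and 41.3 CPM in labelled knockout, against 51.3, 77.6 and 68.2 CPM in wild type. Its labelled-knockout libraries were at 35.8 and 31.7 CPM at day 4 and 33.0 and 50.3 CPM at day 7, and its wild-type libraries at 25, 42.3 and 36.2 CPM and 39.3, 48.4 and 55.2 CPM on those days. The groups were apart at day 14 and overlapped on the other days. The day 14 difference was -0.83 ± 0.27 (adjusted p = 0.117) and was not called.

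Ttc21b (ENSMUSG00000034848; chr2:66184327-66256617, minus strand; 29 merged exons, 9282 bp) encodes IFT139, the subunit that limits Hedgehog signalling in mouse embryos. In labelled knockout it was at 39.9 and 21 CPM at day 0, 34.2 and 28.5 CPM at day 4, 34.4 and 31.6 CPM at day 7, and 37.7 and 24.0 CPM at day 14. Wild-type cells had 38.6, 25.9 and 28.7 CPM, then 39.4, 31.4 and 34.1 CPM, then 37.8, 30.2 and 32.9 CPM, and 38.7, 27.0 and 36.9 CPM on those days. The genotypes overlapped on every day, and so did the days within each genotype. The day 14 difference was -0.17 ± 0.26 (adjusted p = 0.941; 95% interval -0.71 to 0.38), so the data allow a fall of up to 0.71. The day 14 minus day 0 change of Ttc21b was 0.14 ± 0.23 in wild type (95% interval -0.35 to 0.63).

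Tulp3, the tubby-like adaptor, had the second smallest day 14 difference. It lies at chr6:128321161-128355851 on the minus strand (ENSMUSG00000001521; 14 merged exons, 9342 bp). At day 14 Tulp3 was at 69.1 and 51.5 CPM in labelled knockout, against 73.4, 94.7 and 98.2 CPM in wild type. At day 0 the order was not the same, with 29.0 and 40.5 CPM in labelled knockout, against 28.6, 32.0 and 29.8 CPM in wild type. At days 4 and 7 it was at 60.6 and 43.3 CPM and at 61.0 and 69.5 CPM in labelled knockout, and at 40.3, 59.8 and 64.2 CPM and at 64.0, 80.9 and 88.2 CPM in wild type. The genotypes overlapped at days 0, 4 and 7 and were apart at day 14. The day 14 difference was -0.56 ± 0.23 (adjusted p = 0.266), and the mean in labelled knockout was 67.9% of that in wild type.

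The dynein-2 motor is represented by Dync2h1, its heavy chain with the motor domain, and Dync2li1, the light intermediate chain that binds and stabilises the heavy chain. Dync2h1 (ENSMUSG00000047193; chr9:6928503-7184446, minus strand; 91 merged exons, 16348 bp) had the largest change over time of the 9. It was at 13.6 and 8.38 CPM at day 0, 57.7 and 43.3 CPM at day 4, 82.3 and 58.0 CPM at day 7, and 80.8 and 47.5 CPM at day 14 in labelled knockout. In wild type it was at 22.2, 14.3 and 16 CPM at day 0, 53, 72.5 and 83.7 CPM at day 4, 120, 79.6 and 116 CPM at day 7, and 95.9, 119 and 111 CPM at day 14. The 2 labelled-knockout libraries lay far apart at day 14, and both were below all wild-type libraries. The day 14 difference was -0.80 ± 0.29 and was not called (adjusted p = 0.173). Within replicate number 1 it was -0.25, and within number 2 it was -1.32, the widest split among the 9.

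Dync2li1 (ENSMUSG00000024253; chr17:84626496-84655588, plus strand; 13 merged exons, 1869 bp) was at 57.5 and 83.0 CPM in labelled knockout at day 14, against 116, 150 and 151 CPM in wild type. At day 0 it was at 19.9 and 16.5 CPM in labelled knockout, against 32.9, 26.4 and 28.6 CPM in wild type. At days 4 and 7 Dync2li1 was at 50.4 and 54.3 CPM and at 53.8 and 82.5 CPM in labelled knockout, and at 45.4, 75.8 and 75.0 CPM and at 84.4, 84.5 and 117 CPM in wild type. The groups were apart at days 0, 7 and 14, narrowly so at day 7, and overlapped at day 4. Its day 14 mean was 70.2 ± 18.1 CPM in labelled knockout, 50.5% of the 139 ± 20.2 CPM in wild type, and the fall of 0.99 ± 0.25 was called (adjusted p = 0.0278). The call was lost without labelled-knockout replicate 1 (adjusted p = 0.246), wild-type replicate 2 (0.11) or wild-type replicate 3 (0.117) of day 14, and edgeR gave 0.0638. At day 0 Dync2li1 differed by -0.67 ± 0.25 (adjusted p = 0.225), close to the -0.66 ± 0.29 of Dync2h1 (adjusted p = 0.338).

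**Figure D2:**
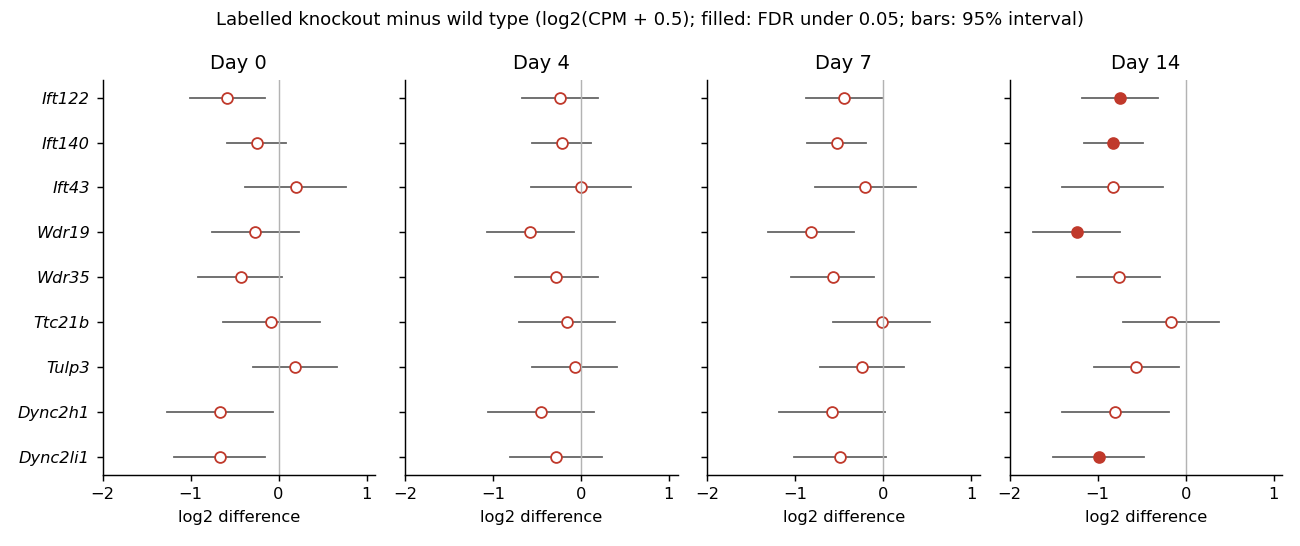
Differences of labelled knockout minus wild type on the log2(CPM + 0.5) scale for the 9 genes (rows) at each day (panels). Circles are estimates, filled where called at an adjusted p under 0.05, and lines are 95% intervals; filled circles occur at day 14 only, for Ift122, Ift140, Wdr19 and Dync2li1.

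Before day 14 no difference between genotypes was called among the 9. At day 0, 0 of the 9 were called by limma, edgeR or DESeq2, where limma called 2.2% of tested genes, and 3 had an unadjusted p under 0.05, all lower in labelled knockout. Groups at day 0 were apart for 5 of the 9, lower in labelled knockout each time, as for 8.5% of tested genes, and the differences ran from -0.67 in Dync2li1 to 0.20 in Ift43. At day 4, 0 of the 9 were called by any of the 3 tools against 1.15% of tested genes, 1 had an unadjusted p under 0.05, and the groups of all 9 overlapped (9.18% of tested genes were lower without overlap). Wild-type replicate 1 of day 4, titled day 3, was the lowest wild-type library of that day for 8 of the 9, and its multiciliated markers summed to 495 CPM, against 1320 and 1390 CPM in the other wild-type libraries. Without both libraries titled day 3, the differences at day 4 ran from -1.10 in Wdr19 and -0.84 in Dync2h1 (-0.45 with them) to -0.20 in Ttc21b. Those of Wdr35 (-0.70), Ift122 (-0.57), Ift140 (-0.52) and Tulp3 (-0.52) had been -0.28, -0.24, -0.21 and -0.07 with them, and Wdr19 was the 1 gene called. At day 7, 0 of the 9 were called against 1.64% of tested genes, 4 had an unadjusted p under 0.05, and edgeR called 0 and DESeq2 2. For 5 of the 9 the day 7 groups were apart, lower in labelled knockout, as for 13.3% of tested genes. The median of the 9 was -0.27 at day 0, -0.24 at day 4, -0.49 at day 7 and -0.80 at day 14.

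Averaged over days 4, 7 and 14, the difference between genotypes used 6 libraries labelled knockout and 9 of wild type, and 6 of the 9 genes fell. They were Wdr19, Dync2h1, Dync2li1, Wdr35, Ift140 and Ift122, and the share of tested genes called lower was 6.32%. The fit took libraries of different days as independent, and whether a replicate number stands for the same mice on each day is not given. If it does, the averaged comparison counts the same replicates again on each day, and its p-values can be too small. Wdr19 fell by 0.88 ± 0.13 (adjusted p = 0.000357) and Ift140 by 0.52 ± 0.09 (adjusted p = 0.00105), and both stood with any 1 library left out. Dync2h1, the motor subunit, fell by 0.61 ± 0.16 (adjusted p = 0.023), a call lost when any of 5 libraries was left out (adjusted p 0.0504 to 0.103): labelled-knockout replicate 2 at day 4, 7 or 14, and wild-type replicate 3 at day 4 or 7. Dync2li1 fell by 0.59 ± 0.14 (adjusted p = 0.0114). Wdr35 fell by 0.54 ± 0.13 (adjusted p = 0.0109), with an adjusted p of 0.0553 without labelled-knockout replicate 2 of day 4. Ift122 fell by 0.48 ± 0.12 (adjusted p = 0.0132), a call lost without labelled-knockout replicate 2 of day 4, 7 or 14 (0.0671, 0.0536 and 0.0592). Ift43 (-0.35 ± 0.16), Tulp3 (-0.29 ± 0.13) and Ttc21b (-0.11 ± 0.15) were not called, at adjusted p of 0.205, 0.206 and 0.759. Without labelled-knockout replicate 2 at every day, 2 of the 9 were called, Wdr19 and Dync2li1.

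In the authors' deposited table, the log2 fold changes of knockout over wild type at day 14 were -1.19 for Wdr19 (adjusted p 3.43e-07), -0.91 for Dync2li1 (0.00382) and -0.77 for Ift140 (0.00224). For Ift122, Wdr35 and Ift43 the authors' deposited table gives -0.68 (0.00977), -0.7 (0.00692) and -0.77 (0.029). The authors' deposited table puts Dync2h1 at an adjusted p of 0.0574, Tulp3 at 0.208 and Ttc21b at 0.954. At day 7 the authors' deposited table lists Wdr19 (0.0115) and Ift140 (0.0491) under 0.05.

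Over time, wild-type cells gained these transcripts mostly by day 7. At day 4, 8 of the 9 had risen over day 0 in wild type, against 13.7% of tested genes, with the heavy chain Dync2h1 (1.96 ± 0.26) and Wdr35 (1.37 ± 0.20) first and Ift140 (0.59 ± 0.14) least. Ift43 was the least certain of them (0.73 ± 0.24, adjusted p = 0.0338), and lost its call without wild-type replicate 2 or 3 of day 0, or replicate 2 or 3 of day 4 (adjusted p 0.0931 to 0.14). At day 7 the same comparison with day 0 gave 8 of 9, against 19% of tested genes. Between days 4 and 7, 0 of the 9 were called in wild type against 0.127% of tested genes, 7 had an unadjusted p under 0.05, edgeR called 0 and DESeq2 2. With the replicate number as a block, Ift140 (adjusted p = 0.0354) and Wdr19 (0.0497) were called higher in wild type at day 7 than at day 4. Between days 7 and 14, 0 of the 9 were called in wild type by limma, edgeR or DESeq2, where limma called 0% of tested genes, and 1 had an unadjusted p under 0.05.

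At day 14 against day 0 in wild type, Dync2h1 rose by 2.62 ± 0.26 (adjusted p = 3.95e-07), the largest change among the 9. Dync2li1 rose by 2.22 ± 0.22, Wdr35 by 2.12 ± 0.20, Wdr19 by 2.08 ± 0.21 and Ift122 by 1.77 ± 0.18, each with an adjusted p of 7.42e-07 or less. Ift43 rose by 1.66 ± 0.24 (adjusted p = 3.41e-05), the adaptor Tulp3 by 1.53 ± 0.20 (1.16e-05) and Ift140 by 1.5 ± 0.14 (2.61e-07). Ttc21b alone was not called (adjusted p = 0.663).

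Labelled-knockout cells also gained most of these transcripts. At day 4, 5 of the 9 had risen over day 0, against 9.25% of tested genes: Dync2h1 (2.17 ± 0.31), Wdr35 (1.53 ± 0.24), Dync2li1 (1.5 ± 0.27), Ift122 (1.36 ± 0.22) and Ift140 (0.62 ± 0.17, adjusted p = 0.0166). The call of Ift140 was lost without labelled-knockout replicate 1 or 2 of day 0 (0.0531 and 0.0707), replicate 1 of day 4 (0.168), or both libraries titled day 3 (0.0955). At day 7, 7 of the 9 had risen, against 12.5% of tested genes, and Ift43 was not called (0.81 ± 0.30, adjusted p = 0.0543; 0.0472 with the replicate block). At day 14, 7 of the 9 had risen against 14.3% of tested genes, from 2.48 ± 0.31 in Dync2h1 to 0.79 ± 0.25 in Tulp3. Tulp3 lost its call at day 14 without labelled-knockout replicate 1 of day 0 (adjusted p = 0.181) or of day 14 (0.161), and at day 7 without labelled-knockout replicate 1 of day 0 (0.111) or replicate 2 of day 7 (0.0814). Ift43, at 0.63 ± 0.30 (adjusted p = 0.116), and Ttc21b, at 0.05 ± 0.28 (0.912), were not called at day 14. Without labelled-knockout replicate 1 of day 0, where Ift43 was highest, its adjusted p was 0.0316. After day 7 the labelled-knockout levels changed by -0.17 to 0.12, and 0 of the 9 were called between days 7 and 14 by limma, edgeR or DESeq2, with 0 at an unadjusted p under 0.05 (limma called 0% of tested genes). Between days 4 and 7, 0 were called by these tools in labelled knockout, where 1 had an unadjusted p under 0.05 and limma called 0.00635% of tested genes.

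**Figure D3:**
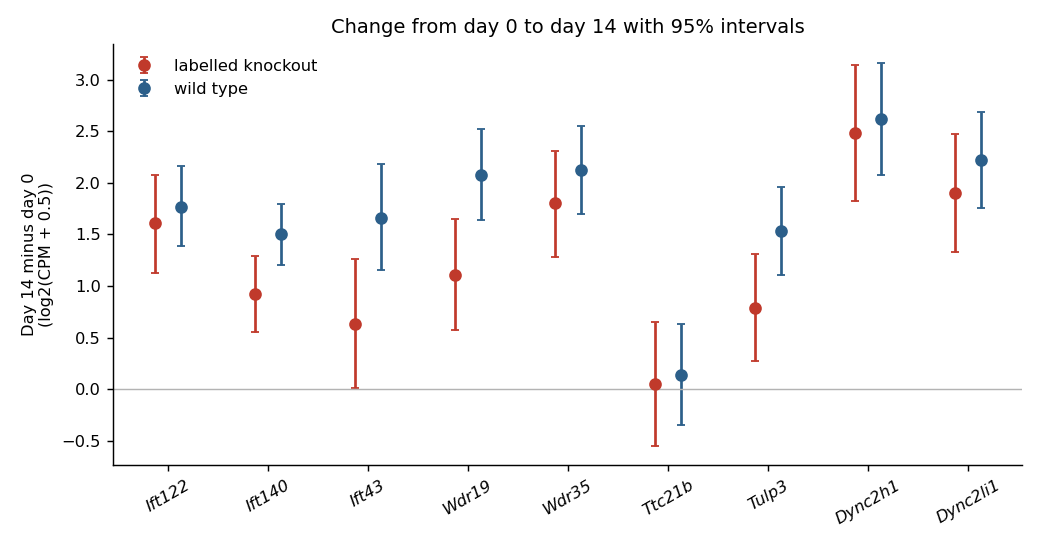
Change of each gene at day 14 against day 0 on the log2(CPM + 0.5) scale, in labelled knockout (red, left) and wild type (blue, right), with 95% intervals. Dync2h1 changed by 2.48 in labelled knockout and 2.62 in wild type, and Ift43 by 0.63 in labelled knockout and 1.66 in wild type.

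Whether the change over time differed between genotypes was tested as an interaction, and 0 of the 9 were called by limma, edgeR or DESeq2 at any day. At day 14, limma called 1% of tested genes, and 4 of the 9 had an unadjusted p under 0.05, all with a smaller gain in labelled knockout. These were Ift43 (-1.03 ± 0.38, adjusted p = 0.301), Wdr19 (-0.97 ± 0.33, 0.223), Tulp3 (-0.74 ± 0.32, 0.414) and Ift140 (-0.58 ± 0.22, 0.325). For Wdr35 (-0.33), Dync2li1 (-0.32), Ift122 (-0.17) and Dync2h1 (-0.14) the estimates were smaller, and these 4 had negative differences at day 0 that were not called (-0.43, -0.67, -0.58 and -0.66 in that order). At days 4 and 7, 0 had an unadjusted p under 0.05, where limma called 0.0191% and 0.152% of tested genes.

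Levels between genes can be set side by side only per length, and CPM was divided by the merged exon length in kb for that purpose. That length joins the exons of all annotated transcripts of a gene and can exceed that of the transcript expressed. Orders and shares per length therefore depend on the annotation. At day 14, the light intermediate chain Dync2li1 led with 37.6 ± 9.66 CPM per kb in labelled knockout and 74.4 ± 10.8 CPM per kb in wild type. Ift43 came next, at 22.1 ± 4.15 CPM per kb in labelled knockout and 39.8 ± 8.08 CPM per kb in wild type. These are also the shortest genes of the set, and both stood apart from their neighbours in the order. In wild type the order at day 14 went on with Wdr35 (18.9 ± 1.54 CPM per kb), Ift140 (16.3 ± 1.97), Tulp3 (9.5 ± 1.43), Ift122 (9.44 ± 0.258), Wdr19 (7.03 ± 0.94), Dync2h1 (6.64 ± 0.723) and Ttc21b (3.69 ± 0.682). The ranges of Wdr35 and Ift140, of Tulp3 and Ift122, and of Wdr19 and Dync2h1 overlapped across these libraries. Within each wild-type library of day 14, Wdr35 was above Ift140 and Wdr19 above Dync2h1. Tulp3 and Ift122 changed order between libraries. Differences between neighbours were not tested. In labelled knockout Wdr19 was last at 2.94 ± 0.322 CPM per kb, after Ttc21b (3.32 ± 1.05) and Dync2h1 (3.92 ± 1.44), and these 3 overlapped. The heavy chain Dync2h1 was last in both genotypes at day 0, at 0.672 CPM per kb in labelled knockout and 1.07 CPM per kb in wild type.

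Ttc21b was not called over time, while its paralog Ttc21a, which is linked to sperm flagella in human and mouse, rose in both genotypes. Ttc21a was at 26.7 and 27.0 CPM in labelled knockout at day 14, against 109, 127 and 112 CPM in wild type. At day 0 it was at 1.05 and 0.435 CPM in labelled knockout and at 1.24, 0.412 and 0.821 CPM in wild type. From day 0 to day 14 the rise of Ttc21a was 4.50 ± 0.52 in labelled knockout (adjusted p = 6.88e-06) and 6.51 ± 0.43 in wild type (adjusted p = 4.02e-09), sizes that ran from 3.40 to 5.23 and from 5.40 to 7.15 over the pseudocounts and tools tried. At day 14 Ttc21a fell in labelled knockout by 2.09 ± 0.48 (adjusted p = 0.0171), a call lost without labelled-knockout replicate 1 or 2 (0.11 and 0.131) or wild-type replicate 2 or 3 (0.0689 and 0.0587). Per length, Ttc21a made up 55% and 65.9% of the 2 paralogs together at day 14 in labelled knockout, against 82.9%, 89% and 84% in wild type. At day 0 its share was 4.34% and 3.45% in labelled knockout, and 5.25%, 2.67% and 4.7% in wild type. How reads shared by both paralogs were counted is not given in the sources used here. Of the 5 paralogs of Ttc21b and Tulp3 listed, 4 were tested, and the other one called at day 14 was Tulp2, of the tubby family, at 0.954 and 0.308 CPM in labelled knockout, against 2.64, 4.09 and 3.19 CPM in wild type. Tulp2 fell by 1.80 ± 0.40 (adjusted p = 0.0144), a size that ran from -1.02 with a pseudocount of 2 to -2.37 with DESeq2, and edgeR did not call it (0.0613). Without labelled-knockout replicate 2 (0.256), wild-type replicate 2 (0.0713) or wild-type replicate 3 (0.0527) of day 14, the call of Tulp2 was lost.

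**Figure D4:**
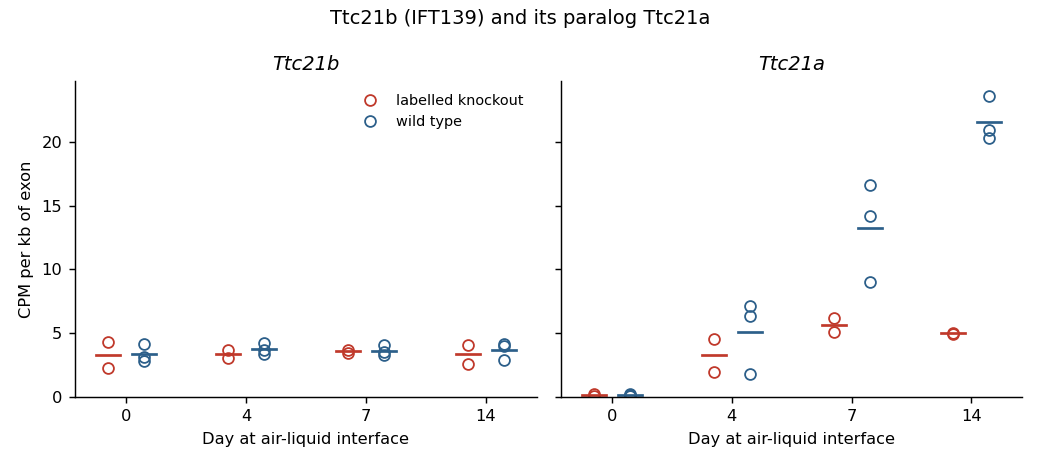
CPM per kb of exon for Ttc21b (left panel) and Ttc21a (right panel) by day, in labelled-knockout libraries (red, left of each pair) and wild-type libraries (blue, right). Circles are libraries and bars are means; Ttc21b stayed between 2.26 and 4.3 CPM per kb in all libraries, while Ttc21a climbed after day 0 in both genotypes.

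The other subunits of dynein-2, 9 of 9 tested, were looked at with the same fit. From day 0 to day 14, 5 rose in labelled knockout and 6 in wild type, where 14.3% and 21.8% of tested genes were called higher. The largest change was that of Dynlrb2, a roadblock light chain, which was at 79.7 and 91.4 CPM in labelled knockout at day 14, against 180, 260 and 262 CPM in wild type. At day 0 Dynlrb2 was at 0.475 and 0.356 CPM in labelled knockout and 0.51, 0.412 and 0.534 CPM in wild type, and it rose by 7.87 ± 0.38 in wild type. With day 0 levels near the pseudocount, the size of that rise ran from 6.55 with a pseudocount of 2 to 8.90 with DESeq2. The intermediate chains Wdr60 (2.3) and Wdr34 (1.84) and the light chain Tctex1d2 (2.11) also rose in wild type. Between genotypes 0 of the 9 were called at day 14 by limma or edgeR, and DESeq2 called 2, where 3.8% of tested genes were called lower by limma. The nearest were Wdr34 (-0.68 ± 0.19, adjusted p = 0.0608) and Dynlrb2 (-1.43 ± 0.43, 0.0762), which were named for their values. Averaged over days 4, 7 and 14, these 2 fell, by 0.37 ± 0.11 in Wdr34 (adjusted p = 0.042) and 0.81 ± 0.25 in Dynlrb2 (0.0447). Of the 15 runs that left out 1 library each, 4 called Dynlrb2 (those without wild-type replicate 1 of day 4, 7 or 14, or labelled-knockout replicate 2 of day 7) and 3 called Wdr34 (those without wild-type replicate 1 of day 4 or 14, or labelled-knockout replicate 2 of day 14). The highest adjusted p among these runs was 0.144 for Dynlrb2 and 0.114 for Wdr34.

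Most of the IFT-B complex of the outward trains rose in culture. All 18 tested members rose from day 0 to day 14 in wild type and 13 in labelled knockout, against 21.8% and 14.3% of tested genes. At day 14 between genotypes 6 of 18 fell, against 3.8% of tested genes, with a median of -0.79. Traf3ip1, which encodes IFT54, had the largest difference, at 53 and 35.7 CPM in labelled knockout, against 183, 193 and 203 CPM in wild type (-2.14 ± 0.27, adjusted p = 0.000254). It was also the only member of these transport lists called at day 7 (-1.44, adjusted p = 0.0102), a call lost without labelled-knockout replicate 1 (0.0722), replicate 2 (0.141) or wild-type replicate 3 (0.0709) of day 7. Ift81, which binds tubulin with IFT74, fell by 1.11 ± 0.22 at day 14 (adjusted p = 0.00641). Ttc30a1 fell by 1.06 ± 0.26 (adjusted p = 0.028), but near-identical copies of it make its counting uncertain. Ift27, a small GTPase of the complex, fell by 1.05 ± 0.25 (adjusted p = 0.0209). With 1 library of day 14 left out, 2 to 6 of the 18 were called: 2 without labelled-knockout replicate 1 or 2 and 3 without wild-type replicate 2 or 3. Ift81 lost its call without either labelled-knockout library (0.0502 and 0.072), Ttc30a1 without any of those 4 (0.0967 to 0.191), and Ift27 without labelled-knockout replicate 1 (0.2) or wild-type replicate 2 or 3 (0.094 and 0.0989).

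Of the kinesin-2 subunits, 3 of 5 rose from day 0 to day 14 in labelled knockout and 4 in wild type (14.3% and 21.8% of tested genes). Kif3a, a motor subunit, fell at day 14 in labelled knockout by 0.77 ± 0.20 (adjusted p = 0.033). Of the BBSome and its partners, which carry membrane proteins on the trains, 9 of 10 rose over time in each genotype, and 2 fell at day 14 (3.8% of tested genes), Bbs1 (-1.01 ± 0.25, adjusted p = 0.0278) and Bbs9 (-0.82 ± 0.19, 0.0211). Among 6 tested genes for cargo that IFT-A and TULP3 bring into cilia, Arl13b, a GTPase of the ciliary membrane, was at 29.5 and 32.5 CPM in labelled knockout at day 14, against 49.1, 57.9 and 57.8 CPM in wild type. Arl13b fell by 0.81 ± 0.20 (adjusted p = 0.0246), and the list's median was 0.06. All 4 of these calls were lost without labelled-knockout replicate 2 of day 14, at adjusted p of 0.357 for Kif3a, 0.31 for Bbs1, 0.334 for Bbs9 and 0.11 for Arl13b. They were also lost without wild-type replicate 2 (0.119, 0.094, 0.0544 and 0.0979, in that order of genes) or replicate 3 (0.126, 0.0869, 0.105 and 0.102). Without labelled-knockout replicate 1, Kif3a (0.0734), Bbs1 (0.0738) and Arl13b (0.157) were not called, and without wild-type replicate 1 Bbs1 (0.059) was not.

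Hedgehog readers is the name used here for a list of genes of the Hedgehog pathway, which needs cilia in many tissues. The name is a label only, and the activity of the pathway was not tested. Between genotypes at day 14, 0 of the 5 tested (Ptch1, Smo, Gli2, Gli3 and Sufu) were called by limma, edgeR or DESeq2 (median -0.08). The share of all tested genes called by limma was 4.21%. Gli1 and Hhip, also on the list, were too low to test. From day 0 to day 14, Gli3, a transcription factor of the pathway, and Sufu, which holds GLI proteins back, fell in both genotypes. Sufu fell by 0.92 in labelled knockout (adjusted p = 0.0202) and by 0.70 in wild type (0.0241), and Gli3 fell by 0.65 in labelled knockout (0.0234) and by 1.16 in wild type (3.29e-05). With library size scaling, the calls of Sufu in both genotypes (0.0698 and 0.0689) and of Gli3 in labelled knockout (0.0963) were lost. They also rested on single libraries, since without labelled-knockout replicate 2 of day 14 the adjusted p in labelled knockout was 0.27 for Sufu and 0.219 for Gli3. Without wild-type replicate 2 of day 14, that of Sufu in wild type was 0.0854.

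**Figure D5:**
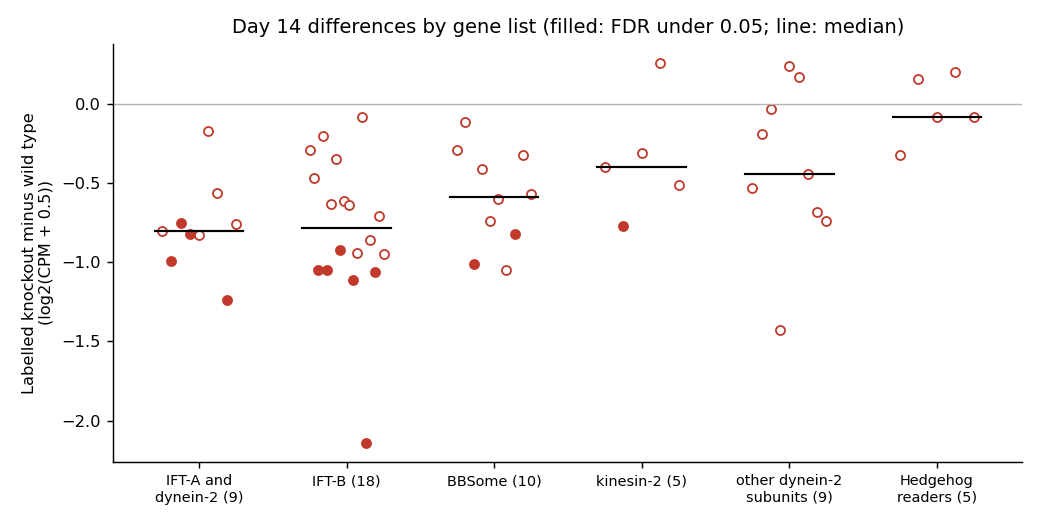
Differences of labelled knockout minus wild type at day 14 on the log2(CPM + 0.5) scale by gene list, with the number of genes in brackets. Each circle is 1 gene, filled where called at an adjusted p under 0.05, and lines are medians, which were -0.80 for IFT-A and dynein-2, -0.79 for IFT-B and -0.08 for the Hedgehog readers.

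Across the 20 libraries, the 10 genes whose log2 levels were most like the mean of the 9 members were 2610015P09Rik, Kif9, Ankrd42, Cspp1, Iqce, Ccdc173, Rpgrip1l, Bbs7, Ift88 and Cep290, with Pearson r from 0.99 to 0.982. This is a description over libraries that share days and genotypes. Kif9, a kinesin of motile cilia, averaged 38.3 CPM in labelled knockout and 109 CPM in wild type at day 14, and Ift88, the IFT-B subunit, 65 CPM in labelled knockout and 126 CPM in wild type. Each member correlated with the mean of the other 8 at r of 0.878 to 0.985, apart from Ttc21b at 0.294.

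Other markers were compared between genotypes, and some lists went with the 9 genes, some went the other way and some overlapped. The 14 tested multiciliated markers summed to 1270 and 993 CPM in labelled knockout at day 14, against 1960, 2460 and 2380 CPM in wild type, and 5 of 14 fell, where 3.8% of tested genes were called lower and 0.413% higher. Foxj1, the factor that drives motile ciliogenesis, was at 334 and 208 CPM in labelled knockout at day 14, against 487, 492 and 476 CPM in wild type (-0.88 ± 0.31, adjusted p = 0.172). Squamous markers summed to 1580 and 1610 CPM in labelled knockout, against 354, 477 and 371 CPM in wild type, and 4 of 11 were called higher in labelled knockout. Basal markers summed to 5950 and 6180 CPM in labelled knockout and to 3510, 4490 and 5020 CPM in wild type. Secretory markers summed to 23000 and 18700 CPM in labelled knockout and to 33100, 23900 and 27500 CPM in wild type, and 2 of 9 fell. Fibroblast and smooth muscle markers, from cells with a primary cilium, summed to 50.4 and 15.7 CPM in labelled knockout and to 14.7, 18 and 31.5 CPM in wild type, so they overlapped. Leukocyte markers other than Lyz2 were too low to test. Lyz2 was at 864 and 2740 CPM in labelled knockout at day 14, against 701, 812 and 667 CPM in wild type (1.09 ± 0.84, adjusted p = 0.774). At day 0, squamous markers summed to 4940 and 8440 CPM in labelled knockout, against 1220, 1300 and 627 CPM in wild type, and 8 of 11 were called higher in labelled knockout. Secretory markers at day 0 summed to 2120 and 3230 CPM in labelled knockout, against 9130, 5540 and 7680 CPM in wild type. Of these, 5 of 9 were called lower in labelled knockout, where 2.2% of tested genes were called in either direction. Proliferation markers at day 0 summed to 809 and 229 CPM in labelled knockout, against 230, 198 and 73.6 CPM in wild type, with differences of 1.26 to 1.91. Of these 8, 0 were called by limma or edgeR and 1 by DESeq2, and 7 had an unadjusted p under 0.05. Any part of these markers in the differences of the 9 genes was not tested.

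Gene length moved with the replicate number, most widely in the 2 labelled-knockout libraries of day 14. There, replicate 2 minus replicate 1 had a median of -0.29 over the 3411 tested genes of 7000 bp and over and of 0.30 over the 2715 under 2000 bp. The short members Dync2li1 and Ift43 were higher in replicate 2 than in replicate 1, by 0.53 and 0.38, and the 7 members of 7273 bp and over were lower, by -0.22 in Wdr19 to -0.76 in Dync2h1. In labelled knockout the replicate medians, long class first, were -0.07 and 0.07 at day 0, -0.14 and 0.15 at day 4, and -0.22 and 0.30 at day 7. In wild type they were 0.10 and -0.12, -0.13 and 0.11, -0.18 and 0.17, and -0.01 and 0.14 at days 0, 4, 7 and 14. Between genotypes the medians were 0.00 in both of these classes at day 14. Earlier they were -0.05 and 0.07 at day 0, -0.05 and 0.09 at day 4, and -0.07 and 0.02 at day 7. The part of gene length in the values of single members was not tested.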

How the data were processed

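Polyadenylated RNA of 20 cultures was sequenced from TruSeq RNA v2 libraries, per the labels' protocols. The deposited signal per gene was a read count that the authors had divided by 1 factor per library, per the file headers and the values: 100% of values were whole reads of that step within 0.1 reads, and these whole reads were recovered. The submitters' processing notes name STAR 2.3.0e, DESeq2 1.4.5 and mm10, with no roles. Not given in the sources used here are the counting tool, the annotation and whether strand was used. A second deposited table holds the authors' own log2 fold changes of knockout over wild type and their adjusted p-values, per the file headers.

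Recovered reads were scaled by TMM (edgeR 4.0.16) to CPM, a gene was kept if 2 or more libraries reached 0.5 CPM (15738 of 38355), and log2(CPM + 0.5) was fitted in limma 3.58.1 (R 4.3.3, trend and robust) with a mean for each of 8 groups of genotype and day. Calls used Benjamini-Hochberg adjustment over all tested genes. The alternatives were edgeR's quasi-likelihood test and DESeq2 1.42.0 on the recovered reads, other scalings, pseudocounts, filters and fits, a replicate block, and leaving out libraries. The script was tested on simulated data. The 9 genes and the other gene lists (other dynein-2 subunits, paralogs, IFT-B, kinesin-2, BBSome, cargo, Hedgehog readers, and markers of multiciliated, basal, secretory, squamous, fibroblast and smooth muscle, leukocyte and proliferating cells) were chosen with earlier results of these data known. From each other list up to 4 called genes with the largest difference were named, with Trp73, Foxj1 and the 10 genes most like the mean of the 9. Genes named outside this rule, Wdr34 and Dynlrb2 at day 14, are stated as such.

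Gene positions (GRCm38) were read from GENCODE vM21, which holds all 9 genes and 36602 of the 38355 identifiers, and no exon of the 9 overlaps an exon of another annotated gene. Promoter windows are those of RefSeq. Replicate numbers are shared between genotypes. The departures from group means correlated over 0.1 in 8 of 8 same-number pairs (0.267 to 0.604, 11016 genes), so blocked values are given where they change a call. Labelled-knockout replicate 2 also correlated with wild-type replicate 3, at 0.538, 0.0691, 0.231 and 0.222 on days 0, 4, 7 and 14. With 2 labelled-knockout libraries a day, their departures mirror each other, so these pairs are not independent. Whether replicates are separate cultures or animals is stated by the series text only as independent biological replicates. The p-values measure the spread between these libraries, with variance shared across groups of 2 or 3.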

Additional observations from a re-analysis of the deposited data

Results flagged for a closer look

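For Traf3ip1 (IFT54) the change from day 0 to day 14 differed between genotypes by -1.7 (adjusted p = 0.0451), with 53 and 35.7 CPM in labelled knockout at day 14, against 183, 193 and 203 CPM in wild type. That call was lost in each of the 10 runs that left out 1 library of days 0 or 14 (adjusted p 0.0519 to 0.22), and it stood in 5 of the 12 other settings (0.00889 to 0.125).

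For Trp73 the change from day 0 differed between genotypes at day 4 (-3.54, adjusted p = 0.021), day 7 (-4.49, adjusted p = 0.0018) and day 14 (-4.56, adjusted p = 0.000729). At day 0 the libraries labelled knockout held 49.2 and 48.7 CPM, and those of wild type 2.7, 2.2 and 1.07 CPM. The day 4 call was lost in 5 of 10 runs that left out 1 library (without labelled-knockout replicate 2 of day 0 or 4, wild-type replicate 3 of day 0, or wild-type replicate 2 or 3 of day 4), at adjusted p up to 0.142.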

How the results depend on the processing

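No result changed direction while called under any alternative run. Of 7125 single-gene values under alternatives, 6854 kept their side of the threshold, 237 lost a call and 34 gained one. For labelled knockout against wild type, the number of the 9 genes called at day 14 was 4, and it was 5 with DESeq2, 2 with edgeR or upper-quartile scaling, 0 without labelled-knockout replicate 2 at every day, and 1 to 3 with single libraries left out. At day 4 it was 0, and 1 without both libraries titled day 3. At day 7 it was 0, and 2 with DESeq2. Averaged over days 4, 7 and 14 it was 6, 2 without labelled-knockout replicate 2 at every day, and 3 to 6 with single libraries left out. For wild type at day 7 against day 4 it was 0, 2 with DESeq2, 2 with the replicate block, and 0 to 1 with single libraries left out. The replicate block otherwise changed the call of Ift43 at day 7 against day 0 in labelled knockout. The cause of these changes was not tested, and runs that left out libraries also had fewer of them. Of all tested genes, 663 were called at day 14 between genotypes (127 without labelled-knockout replicate 2 at every day, 864 with DESeq2), 347 at day 0 (8 to 577), 181 at day 4 (44 to 356), 258 at day 7 (26 to 524), and 1643 averaged over days (953 to 2943). Library size scaling moved the median of all genes by 0.16 and 0.15 at days 7 and 14 against day 0 in labelled knockout, where higher calls made up 62.3% against 46.9% and 58.1% against 44.8% of calls with TMM. Upper-quartile scaling moved it by -0.13 at day 14 against day 0 in wild type, where higher calls made up 42.2% against 54% with TMM. Leaving out labelled-knockout replicate 2 or replicate 1 at every day kept a single labelled-knockout library a day. Averaged over days, the run without replicate 2 called fewer of all tested genes than the main fit, and the run without replicate 1 called more. With 2 labelled-knockout libraries a day, moderate differences can be missed.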

Other observations

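The summed proliferation markers overlapped between genotypes at day 14. The 8 tested genes summed to 119 and 115 CPM in labelled knockout and to 91.2, 102 and 201 CPM in wild type. By limma 0 of 8 were called, where 4.21% of all tested genes were called.

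Dynlrb1, the other roadblock light chain, was chosen after its values were seen, beside Dynlrb2. It was at 89.4 and 98.2 CPM in labelled knockout at day 14 and at 103, 91.3 and 93.3 CPM in wild type, and at day 0 it was at 108 and 85.9 CPM in labelled knockout and at 112, 85.1 and 82.5 CPM in wild type. All these groups overlapped.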
